A study of Homo sapiens with 4 samples.

Results

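PAS-seq counts the 3′ ends of polyadenylated transcripts, and it was read here for 8 genes that make, use or carry lactate: the lactate dehydrogenases LDHA, LDHB and LDHD, the monocarboxylate transporters SLC16A1, SLC16A3 and SLC16A7, and the transporter chaperones BSG and EMB. A poly(A) site cluster (PAC) was given to a gene where its dominant site, the position with the most tags, lay in the same-strand span of that gene in GENCODE 44. By this rule 8 of 17627 PACs belonged to 5 of the 8 genes. The site of the LDHB PAC lay 1 nt past the annotated end of LDHB, and that of the most distal SLC16A3 PAC lay 30 nt past the end of SLC16A3, so both fell outside the rule. With the span extended by 1000 nt downstream, 10 PACs belonged to 6 genes, and values that rest on the extension are named as such. No PAC was listed for LDHD or EMB with or without it, which places them under the listing limit and does not show that they are silent.

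The 4 libraries came from KYSE30 and TE-1, 2 established lines of human esophageal squamous cell carcinoma (ESCC). In each line, 1 culture received 20 mM l-lactate for 24 h and 1 control culture received PBS. No genetic change was introduced. The titles name the lines of the controls as KYSE30 and TE-1, whereas their cell line fields read KYSE32 and TE-3, and the titles were followed. Each condition of a line is a single library, so variation between cultures of 1 condition was not measured.

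Lactate dehydrogenase interconverts pyruvate and lactate as a tetramer of LDHA and LDHB subunits, and tetramers rich in LDHA are typical of tissues and tumors that release lactate. LDHD is a mitochondrial enzyme that oxidizes the other enantiomer, d-lactate. Lactate crosses membranes with a proton through the monocarboxylate transporters MCT1 (SLC16A1), MCT2 (SLC16A7) and MCT4 (SLC16A3), of which MCT4 is best known for export from glycolytic cells. Basigin (BSG) carries MCT1 and MCT4 to the cell surface, and embigin (EMB) does so for MCT2.

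The last 30 nt up to and including each site that carries these levels are shown so that the cleavage signals can be compared. They were read from GRCh38 on the transcribed strand, with the canonical hexamer AATAAA or its common variant ATTAAA in capitals where one is present.
LDHA: ctaaaacccccAATAAAccttgaacagtga
LDHB: gaacaAATAAAattaactattgtagtgtgc
SLC16A1 upstream site: gaATTAAAtcctccagcttttgaaccttga
SLC16A1 downstream site: aaatctgaaaaAATAAAagtaaagcaagta
SLC16A3 middle PAC: aagaaacAATAAAaagacagattttcttta
SLC16A3 distal PAC: ttagagaatgAATAAAatacagtaaaagca
BSG proximal PAC: ttcttttttaaaaaagttgggttttctcca
BSG distal PAC: ccgccacAATAAAgatcgcccccacctcca

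These windows lie at chr11:18407818-18407847 on the plus strand for LDHA and at chr12:21635341-21635370 on the minus strand for LDHB. The SLC16A1 windows are chr1:112912231-112912260 and chr1:112911851-112911880, both on the minus strand. The SLC16A3 windows are chr17:82244341-82244370 and chr17:82261130-82261159, and those of BSG are chr19:582876-582905 and chr19:583458-583487, all on the plus strand. Over all 11 member sites, SLC16A7 and the proximal SLC16A3 site included, 8 held AATAAA in the last 30 nt and 1 held ATTAAA, beside 62.8% of 17621 PACs with AATAAA in that window. At the proximal SLC16A3 site AATAAA ended 42 nt before the site. The proximal BSG site was the only member site with neither hexamer nor any other searched variant in 50 nt, as were 4.79% of all PACs. No member site had more than 5 A in the 10 nt downstream. The word TGTA, the core of the sequence that cleavage factor CFIm binds, occurred within 100 nt upstream of 7 of 11 member sites and of 57.0% of all PACs.

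Depth ranged from 7174991 tags in the l-lactate library of KYSE30 to 10393800 in the control of TE-1, and the lowest listed PAC held 8 to 11 tags. Of 7 squamous epithelial markers, read up to 1000 nt past the gene end, KYSE30 listed 4 (SOX2, KRT6A, EPCAM and, by the extension alone, TP63) and TE-1 listed 2 (KRT17 and EPCAM), so that TP63 and SOX2, which define the squamous lineage, were not listed in TE-1. KRT5 and KRT14 were listed in neither line. Of 7 markers of leukocytes, fibroblasts, endothelium and muscle, TE-1 listed COL1A1 and DCN, with a summed level of 12.5 RPM in the control and 8.50 RPM with l-lactate (RPM being the tags of a PAC or gene scaled by the total tags of its library), and KYSE30 listed none. The part of these line differences in the results was not tested.

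LDHA, the subunit that favors lactate formation, was among the most abundant genes of all libraries. It ended at a single PAC in the 3′ UTR, with 1739 RPM in the control and 2119 RPM in the l-lactate library of KYSE30, and with 3532 and 3641 RPM in those of TE-1. Both TE-1 libraries were thus above both KYSE30 libraries, and within each line the l-lactate library was the higher one. LDHA ranked 103 and 83 among listed genes in the KYSE30 control and l-lactate libraries, and 33 and 27 in those of TE-1. The l-lactate to control ratio was 1.22 in KYSE30 (95% counting interval 1.19 to 1.25) and 1.03 in TE-1 (1.02 to 1.05). These intervals, from the exact binomial split of the tags, cover counting error only and not variation between cultures. PCR copies were not told apart, so these and the other counting intervals may be too narrow even for counting error. In TE-1 the log2 difference of LDHA was 0.04 as deposited and 0.0043 after TMM scaling (trimmed mean of log ratios between libraries), beside a median of 0.03 over all genes before that scaling. In KYSE30 TMM left it at 0.28. Neither ratio reached the 1.5-fold used to call a change within a line. Past that fold with l-lactate were 1.88% of 9796 genes upward and 2.06% downward in KYSE30, and 2.53% upward and 1.49% downward in TE-1.

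LDHB, the subunit prevalent in oxidative tissues, had 1322 RPM in the control and 1418 RPM in the l-lactate library of KYSE30, and 1872 and 1854 RPM in those of TE-1. TE-1 was again above KYSE30 in both conditions. Its ratio with l-lactate was 1.07 in KYSE30 (1.04 to 1.10) and 0.990 in TE-1 (0.970 to 1.01), so the TE-1 interval included no change. These values rest on the extended span. The site also lies within ENSG00000285854, a same-strand protein coding gene, and tags of the pair could not be told apart.

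**Figure D1:**
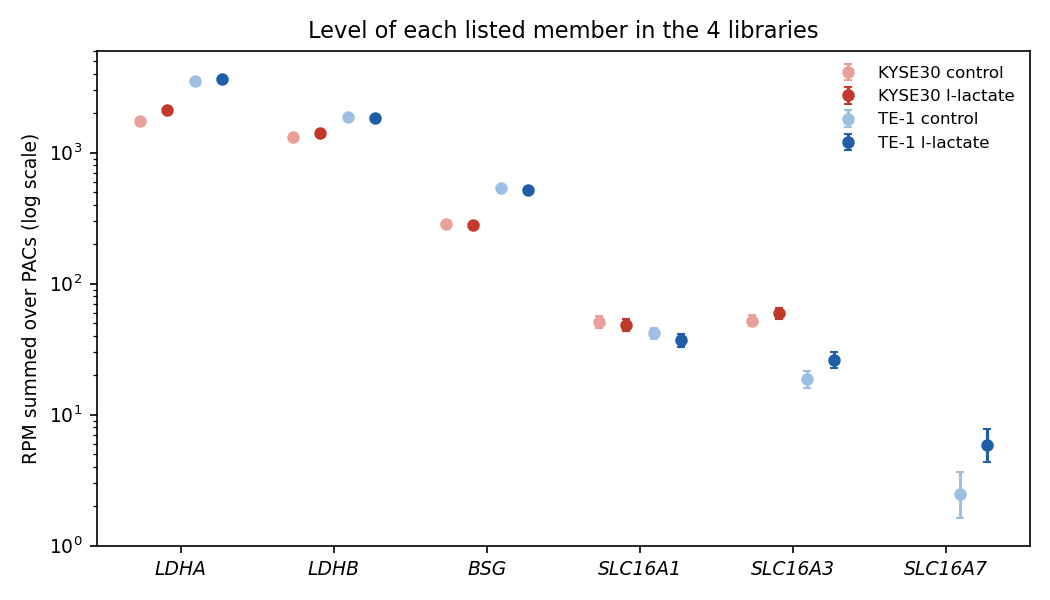
Level of each listed member in the 4 libraries, as RPM summed over PACs up to 1000 nt past the gene end (log axis), with 95% Poisson counting intervals. LDHA, LDHB and BSG were higher in both TE-1 libraries, SLC16A3 was lower there, and SLC16A7 was listed in TE-1 only.

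PAS-seq counts 1 end per transcript, so levels of different genes can be set side by side without division by length. Whether different sites were captured equally well was not tested. The ratio of LDHA to LDHB tags was 1.32 in the KYSE30 control (1.28 to 1.35) and 1.49 with l-lactate (1.46 to 1.53). In TE-1 it was 1.89 in the control (1.85 to 1.92) and 1.96 with l-lactate (1.93 to 2.00). LDHA therefore exceeded LDHB in every library, the ratio was higher in TE-1, and within each line the counting intervals of the 2 conditions did not overlap. No spread between cultures stands behind these ratios.

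**Figure D2:**
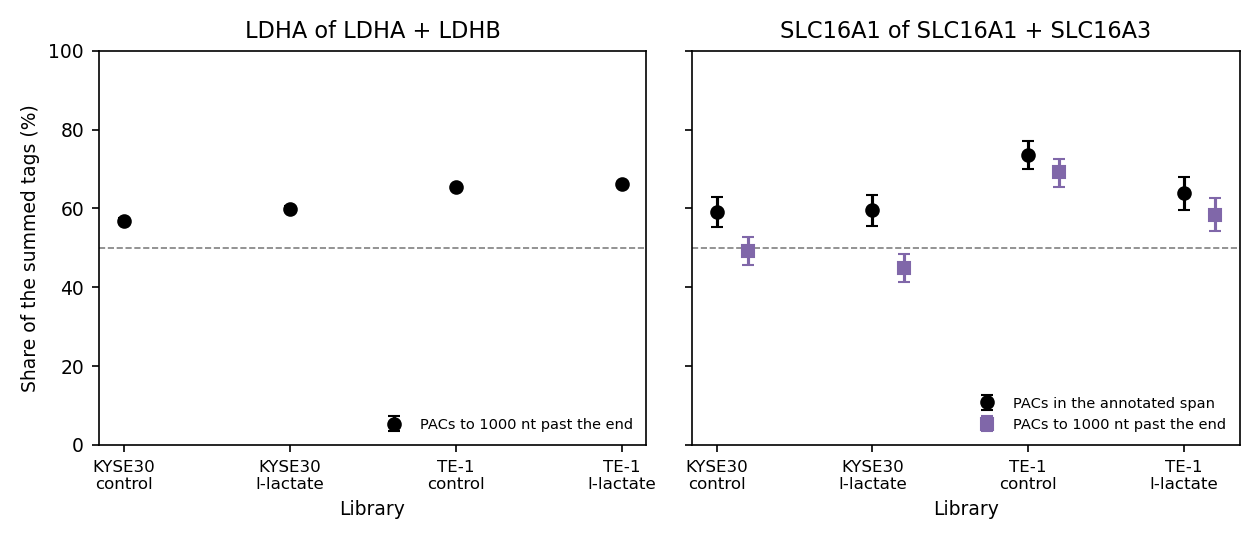
Share of LDHA in the summed LDHA and LDHB tags (left) and of SLC16A1 in the summed SLC16A1 and SLC16A3 tags (right), in percent, with 95% Wilson intervals; the dashed line marks equal tags. LDHA held 56.8% to 66.3%, and in KYSE30 the SLC16A1 share was 59.2% and 59.5% within the span and 49.3% and 44.8% with the distal SLC16A3 PAC counted.

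SLC16A1 encodes MCT1, the widely expressed carrier for lactate uptake and release. It had 50.8 RPM in the control and 48.5 RPM in the l-lactate library of KYSE30, and 41.7 and 36.8 RPM in those of TE-1. The l-lactate library was the lower one in each line, with ratios of 0.955 in KYSE30 (0.823 to 1.11) and 0.884 in TE-1 (0.762 to 1.03), and both intervals included no change.

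SLC16A3 encodes MCT4, the carrier of glycolytic cells. Its PACs in the annotated span summed to 35.0 RPM in the control and 33.0 RPM in the l-lactate library of KYSE30, and to 14.9 and 20.8 RPM in those of TE-1. The corresponding ratios were 0.943 in KYSE30 (0.788 to 1.13) and 1.39 in TE-1 (1.12 to 1.74). With the distal PAC counted, the levels became 52.3, 59.7, 18.6 and 26.2 RPM in the same order, and the ratios 1.14 in KYSE30 (0.993 to 1.31) and 1.41 in TE-1 (1.16 to 1.72). The KYSE30 ratio thus changed sides with the PAC that lies past the annotated end, but both of its intervals included no change. The TE-1 ratio was above 1 either way and under the 1.5-fold limit. CSNK1D lies on the opposite strand at these sites, and the library kit kept strand. Within the span, the middle PAC held 83.5% of the tags in the KYSE30 control and 75.5% in the TE-1 control. It lies in an intron of 1 SLC16A3 transcript and in no annotated 3′ UTR, and whether its tags stand for MCT4 mRNA was not tested.

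Read within the span, SLC16A1 exceeded SLC16A3 in every library, by 1.45-fold in the KYSE30 control (1.23 to 1.70) and 1.47-fold with l-lactate (1.24 to 1.74). In TE-1 it did so by 2.79-fold in the control (2.32 to 3.38) and by 1.77-fold with l-lactate (1.47 to 2.14), and these intervals did not overlap. With the distal PAC counted, the ratio was 0.972 in the KYSE30 control (0.841 to 1.12), 0.813 with l-lactate (0.704 to 0.939), 2.24 in the TE-1 control (1.89 to 2.67) and 1.41 with l-lactate (1.18 to 1.68). The order of the 2 transporters in KYSE30 therefore depended on the gene end used, and in TE-1 it did not. The size of the ratio depended on the PACs counted in both lines. With 3′ UTR PACs only, which leave out the middle SLC16A3 PAC, the log2 ratio was 2.93 in the KYSE30 control and 2.77 with l-lactate. In TE-1 it was 3.20 in the control and 2.79 with l-lactate.

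SLC16A7 encodes MCT2, a carrier of high affinity for its substrates. It was not listed in KYSE30. In TE-1 its upstream PAC had 2.50 RPM in the control and 2.83 RPM with l-lactate, from 26 and 24 tags. A second PAC 1000 nt downstream was listed only in the TE-1 library with l-lactate, at 3.07 RPM from 26 tags at a single site. The methods of the study removed PACs made of a lone site under 3 TPM, and this PAC lay just above that limit, so its absence from the control list is no measure of a difference. With a mean under 5 RPM the gene was not tested.

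BSG, the chaperone of MCT1 and MCT4, had 283 RPM in the control and 281 RPM in the l-lactate library of KYSE30, and 533 and 523 RPM in those of TE-1. The conditions lay within 2% of each other by ratio, at 0.993 in KYSE30 (0.934 to 1.06) and 0.981 in TE-1 (0.943 to 1.02), while TE-1 was far above KYSE30. BSG tags exceeded those of either transporter in all libraries.

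Over both lines, none of the members passed the test for l-lactate. This test was limma on log2(RPM + 1) with line as a block, in which 2 of 9796 genes passed an adjusted p of 0.05 (0.0204%) and 10.6% had an unadjusted p under 0.05. LDHA differed by 0.16 on the log2 scale (SE 0.0700, 95% interval 0.0097 to 0.32, limma adjusted p = 0.450), SLC16A1 by -0.12 (SE 0.11, adjusted p = 0.775), and BSG by -0.02 (SE 0.064, adjusted p = 0.956). SLC16A3 differed by 0.19 within the span (SE 0.16, adjusted p = 0.756) and by 0.33 with the distal PAC in the extended fit (SE 0.12, adjusted p = 0.417). LDHB differed by 0.04 in the extended fit (SE 0.057, adjusted p = 0.866). Unadjusted p was 0.0393 for LDHA within the span. In the extended fit it was 0.0227 for SLC16A3 with its distal PAC, and 10.5% of 10348 genes were under 0.05. The median difference over all genes was 0.02. With 4 libraries and line and treatment terms, 1 residual degree of freedom per gene was left and pooled over genes. It holds how unlike the l-lactate difference was in the lines, so these p-values do not measure variation between cultures. The LDHA interval within the span reached up to 0.32.

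Between the lines, all members that could be tested differed, and so did most genes. This contrast came from the same fit, so its spread is again how unlike the l-lactate differences of the lines were. The p-values therefore do not measure variation between cultures of 1 condition. In the fit within the span LDHA was 0.90 higher in TE-1 on the log2 scale (SE 0.0700, limma adjusted p = 4.99e-07), BSG was 0.90 higher (SE 0.064), SLC16A1 was 0.33 lower (log2 difference -0.33, SE 0.11) and SLC16A3 was 0.91 lower (-0.91, SE 0.16, or -1.30 with its distal PAC in the extended fit). Of the 4 members tested within the span, 2 were called higher and 2 lower, where 36.7% of all genes were higher and 36.9% lower in TE-1. In the extended fit LDHB was 0.44 higher in TE-1 (SE 0.057, adjusted p = 4.4e-05), and 36.6% of genes were higher and 37.2% lower. The sizes were ordinary for this contrast: within the span 63.1% of genes had a smaller difference than LDHA, and 29.6% a smaller one than SLC16A1. The direction of each member was the same in the control pair and in the l-lactate pair. For LDHA the TE-1 to KYSE30 ratio was 2.03 in the controls and 1.72 with l-lactate, and for SLC16A3 within the span it was 0.426 and 0.629.

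**Figure D3:**
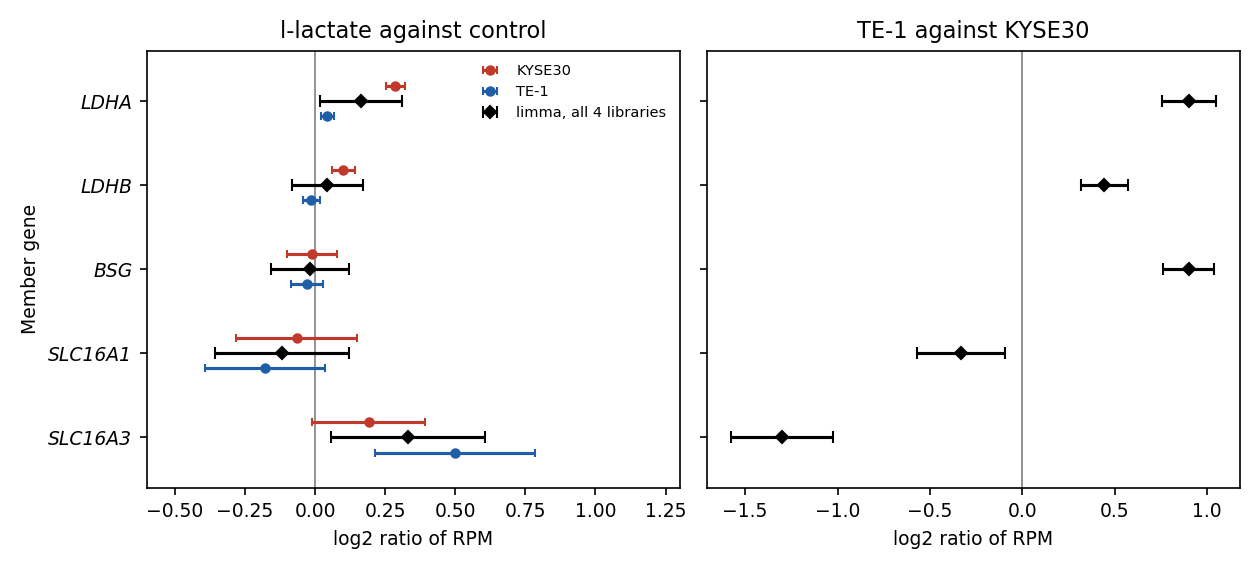
Log2 ratios of RPM for the 5 tested members up to 1000 nt past the gene end. Left, l-lactate over control in each line with 95% counting intervals (circles) and over both lines by limma on log2(RPM + 1) with 95% intervals (diamonds); right, TE-1 over KYSE30 by limma. The limma estimates lie between -0.12 and 0.33 for l-lactate and between -1.30 and 0.90 for the lines, and the estimates within a line lie between -0.18 (SLC16A1 in TE-1) and 0.50 (SLC16A3 in TE-1).

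Within the SLC16A1 3′ UTR a different site was dominant in 1 library. The single SLC16A1 PAC was 513 nt wide, and its 0.1 and 0.9 quantile positions, as deposited, spanned 504 to 508 nt in all libraries, both ends included. The 0.1 quantile lay 9 nt from the upstream end of the PAC in KYSE30 and 5 nt in TE-1. The site called upstream here lay 132 nt from that end. Some tags therefore ended before it, at positions not known from these values. The upstream site, preceded by ATTAAA and with no TGTA in 100 nt, held 51.7% of the tags in the KYSE30 control (195 of 377 tags, Wilson interval 46.7% to 56.7%) and 38.8% with l-lactate (135 of 348, 33.8% to 44.01%). These intervals did not overlap. In the TE-1 control it held 36.7% (159 of 433, 32.3% to 41.4%). In the TE-1 library with l-lactate the site 380 nt downstream, preceded by AATAAA and with a TGTA 38 nt before it, was dominant with 32.1% of tags (100 of 312, 27.1% to 37.4%), so the upstream site held no more than that. Only the dominant site of each PAC is given, and the share of the downstream site in the other 3 libraries is not known. At the upper limit of 32.1% the interval overlapped that of the upstream site in the TE-1 control. Whether the upstream share fell beyond counting error in TE-1 is therefore not known.

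A dominant site moved by more than 24 nt with l-lactate in 1.24% of 10769 PACs in TE-1 and 1.43% of 10849 in KYSE30, and SLC16A1 in TE-1 was the only member PAC among them. The same library gave the only member shift between lines, with l-lactate (1.96% of PACs), and no member moved between the controls (2.06%). The quantile midpoint of the SLC16A1 PAC did not move with l-lactate in either line. Its quantile positions lay at or near the edges of the PAC in all libraries, so shares of the sites can change without moving it. The comparison of dominant shares was added after their values were seen. By it, the SLC16A1 share was 12.9 percentage points lower with l-lactate in KYSE30, where 3.62% of PACs with an unmoved dominant site were lower by at least 10 points. The proximal SLC16A3 PAC was also among these, at 74.4% in the control and 51.1% with l-lactate, but from 43 and 45 tags and with overlapping intervals (59.8% to 85.1% and 37.0% to 65.0%).

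**Figure D4:**
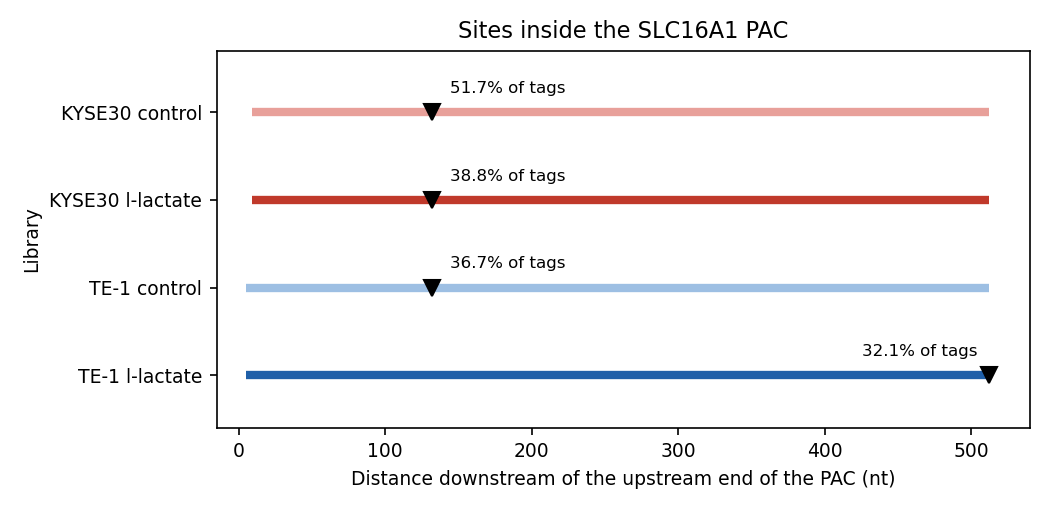
Sites inside the SLC16A1 PAC in each library, as distance in nt along the transcript from the upstream end of the PAC. Lines join the 0.1 and 0.9 quantile positions and triangles mark the dominant site with its share of tags, which lay 132 nt from the upstream end in 3 libraries and 512 nt from it in the TE-1 library with l-lactate.

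SLC16A3 ended at 3 PACs spread over 3 kinds of sequence. The proximal site, in the 3′ UTR of 11 coding transcripts, was the smallest in KYSE30, with 5.79 RPM in the control and 6.27 RPM with l-lactate, and had 3.66 and 4.49 RPM in TE-1. The middle site, 4874 nt downstream in an intron of 1 SLC16A3 transcript, had 29.2 and 26.8 RPM in KYSE30 and 11.3 and 16.3 RPM in TE-1. The distal site, a further 16789 nt downstream and 30 nt past the annotated end, had 17.2 and 26.6 RPM in KYSE30 and 3.66 and 5.43 RPM in TE-1. Most SLC16A3 tags thus came from sites outside the 3′ UTR of these 11 transcripts. In KYSE30 the distal PAC held 33.0% of tags in the control (28.5% to 37.8%) and 44.6% with l-lactate (39.99% to 49.4%), and the middle PAC held 55.9% (51.0% to 60.8%) and 44.9% (40.2% to 49.6%). Both changes exceeded 10 percentage points without overlap of the intervals, and 13.9% of PACs in the extended span changed by at least that many points. In TE-1 the distal share was 19.7% (14.7% to 25.9%) and 20.7% (15.9% to 26.5%).

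BSG ended at a proximal and a distal PAC 582 nt apart, both in the 3′ UTR. The proximal PAC, the one without a hexamer, held 10.03% of BSG tags in the KYSE30 control (8.82% to 11.4%) and 12.2% with l-lactate (10.8% to 13.7%). In TE-1 it held 19.8% (18.8% to 20.9%) and 19.6% (18.4% to 20.7%). Proximal use was therefore higher in TE-1 in both conditions, with no overlap of the counting intervals between the lines. The l-lactate and control intervals overlapped in each line. In the limma fit of PAC usage, the log2 of one PAC over the others of its gene, the proximal BSG PAC was 0.95 higher in TE-1 (SE 0.22), with an adjusted p of 0.0776, which missed 0.05.

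**Figure D5:**
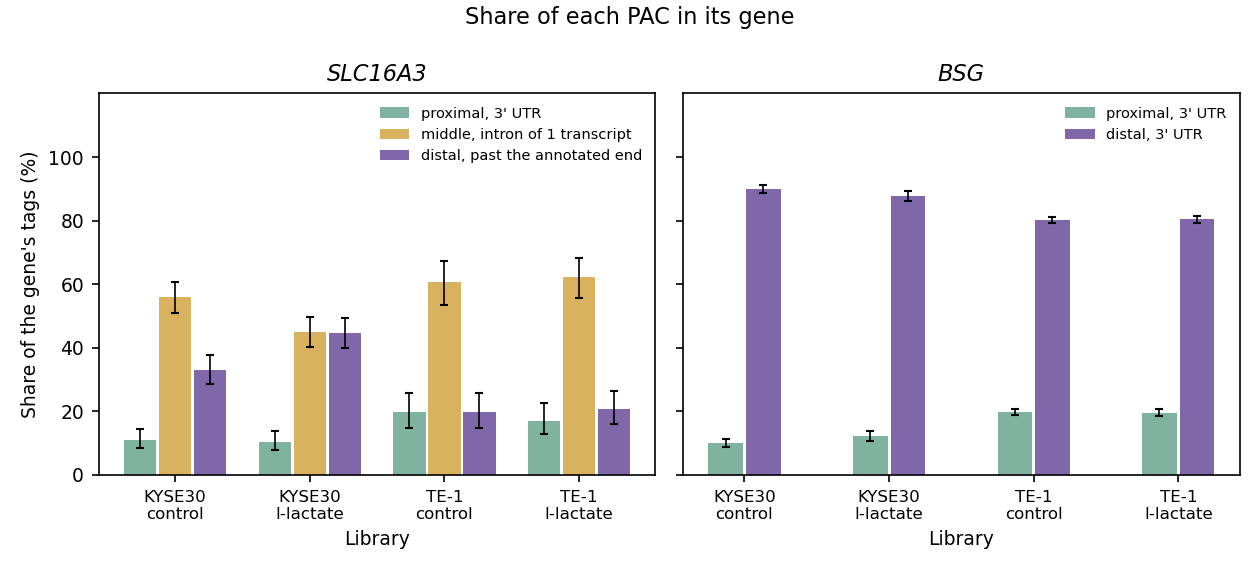
Share of each PAC in the tags of SLC16A3 (left) and BSG (right) in percent, with 95% Wilson intervals. The distal SLC16A3 share was 33.0% and 44.6% in KYSE30 and 19.7% and 20.7% in TE-1, and the proximal BSG share was 10.03% and 12.2% in KYSE30 and 19.8% and 19.6% in TE-1.

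None of the 4 member PACs counted within the spans, those of SLC16A3 and BSG, changed its share by 10 points with l-lactate, where 14.1% of PACs did in KYSE30 and 15.1% in TE-1. In the limma fit of usage, 0 of 8028 PACs passed for l-lactate (0.0%), 452 had an unadjusted p under 0.05, and 17.6% passed between the lines, none of them a member PAC.

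Relatives of the members were mostly unlisted. Of 18 other dehydrogenase isoforms, carriers, chaperones and the lactate receptor HCAR1, 5 had a PAC in the extended span. SLC16A6 was not listed in KYSE30 and had 103 RPM in the control and 74.9 RPM in the l-lactate library of TE-1. SLC16A9, a carnitine carrier, had 4.44 and 3.35 RPM in KYSE30 and 10.9 and 13.2 RPM in TE-1. SLC16A10, an aromatic amino acid carrier, had 3.50 and 9.34 RPM in KYSE30 and was not listed in TE-1. SLC16A13 had 3.23 and 3.62 RPM in KYSE30 and 1.25 and 1.54 RPM in TE-1. Neuroplastin (NPTN), another chaperone of these carriers, had 68.1 and 66.3 RPM in KYSE30 and 44.8 and 54.2 RPM in TE-1. None of the 3 relatives tested in the extended fit passed for l-lactate, and 3 of 3 passed between the lines, SLC16A6 and SLC16A9 higher and NPTN lower in TE-1, in a fit where 36.6% of all genes were higher and 37.2% lower.

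Pyruvate is the partner of lactate in the dehydrogenase reaction, and 21 of 25 genes of pyruvate handling and linked steps were listed and tested. None passed for l-lactate, with a median log2 difference of 0.01 beside 0.02 for all genes, and 3 had an unadjusted p under 0.05 (PDK1, PDP1 and PC). Between the lines 13 of 21 passed, 9 higher and 4 lower in TE-1, where 36.7% of all genes were higher and 36.9% lower. Among these, PDHA1 and DLAT, subunits of the pyruvate dehydrogenase complex, were higher in TE-1 by 2.02 and 1.33 on the log2 scale. Of the kinases that inactivate the complex, PDK3 was 1.87 higher, PDK1 was 0.93 higher and PDK2 was lower (log2 difference -1.31). The phosphatase PDP1, which reactivates the complex, was lower (-1.45). PC, which carboxylates pyruvate to oxaloacetate, was 1.20 higher.

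The genes most like each member over the 4 libraries were found by the distance between centred log2(RPM + 1) profiles among genes within 2-fold of its mean level. They were TMSB10 and NME2 for LDHA (distances 0.14 and 0.20), ENSG00000285854 and PCBP2 for LDHB (0.0 and 0.059), TKT and NSMCE1 for SLC16A1 (0.032 and 0.037), MTFR2 and TM2D2 for SLC16A3 (0.034 and 0.048), and PPA1 and TPM4 for BSG (0.032 and 0.055). ENSG00000285854 is at 0.0 because it shares its PAC with LDHB. With 4 libraries these likenesses largely follow the difference between the lines, and the pools held 92 genes for LDHA and 3908 for SLC16A1, so distances are not comparable between members.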

How the data were processed

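PAS-seq was done on 4 libraries of ESCC cells. Per the methods of the study, trimmed reads were mapped by HISAT2 on GRCh38, and CAGEr grouped their ends into PACs. Sites under 1 TPM and lone sites under 3 TPM were removed, sites within 24 nt were joined, and PACs above a TPM limit within 500 nt were joined further. The submitters' processing notes name GRCh38.p14. The deposited values are RPM, which the authors call TPM: tags of a PAC scaled by the total tags of its library, uncorrected for length. Position columns deposited by the authors are other values. The PAC start was made 1-based here, and the dominant site, PAC end and quantile positions were used as deposited and read as 1-based. The RPM of all low PACs were whole multiples of 1 tag within 0.1 tag, which gave the depths and tag numbers used for intervals.

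PACs were joined across libraries by their cluster number and placed on GENCODE 44. Levels were tested with limma 3.58.1 in R 4.3.3 on log2(RPM + 1) with line and treatment terms for genes with a mean of at least 5 RPM, and p-values were adjusted by Benjamini-Hochberg over all genes. PAC usage was tested in genes with at least 2 PACs, for PACs with a mean share of at least 5%. Tags were simulated for l-lactate against control over 9796 genes, with a negative binomial size of 100 and the same fold in both lines. On these tags, 95 of 100 genes changed 2-fold, 100 of 100 changed 4-fold and 12 of 9596 unchanged genes were called. The spread was set and not measured, so these counts do not give the power in these data. Smaller changes were not simulated. Within a line, values from single libraries got Poisson, Wilson or exact binomial intervals at 95% and no test, with TMM scaling of the libraries as an alternative. Sequences came from GRCh38; 17621 of 17627 PACs lie on chromosomes and 6 on scaffolds were left out. The members and gene lists were chosen with earlier results of these data known. The named genes were all 8 members, listed relatives, up to 6 pyruvate genes by size of change per contrast, and the 2 nearest profiles per member. PDK1 was added between the lines beside the other kinases.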

Additional observations from a re-analysis of the deposited data

How the results depend on the processing

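LDHA, SLC16A1, SLC16A3 and BSG levels kept their direction and their side of the threshold in both limma contrasts under every alternative run. The alternatives were pseudocounts of 0.5 and 5, no filter, a mean of at least 20 RPM, PACs listed in all 4 libraries, the extended span, and the fit without the replicate block (treatment alone) or without the treatment term (line alone). For LDHA between the lines, the limma adjusted p ranged from 4.1e-46 to 0.00070 over these alternatives, at nearly the same log2 difference. LDHB, tested only in the extended span, was not refitted under these alternatives. The usage of the middle SLC16A3 PAC changed sign with the extended span, from 0.02 to -0.26 for l-lactate (adjusted p = 0.737) and from -0.52 to 0.59 between the lines (adjusted p = 0.215), because the distal PAC enters the denominator. The proximal BSG PAC passed between the lines with a pseudocount of 5 (adjusted p = 0.0115), genes of at least 20 RPM (0.0367) or PACs listed in all 4 libraries (0.000217), and so did the middle SLC16A3 PAC with the last of these (-0.52, 0.0407). The log2 ratio of SLC16A1 to SLC16A3 became -0.041 in the KYSE30 control, -0.29 with l-lactate, 1.12 in the TE-1 control and 0.48 with l-lactate with the extended span, an alternative added after the data were seen. With 3′ UTR PACs only it was 2.93, 2.77, 3.20 and 2.79 in the same order. LDHB has no PAC in its span or 3′ UTR, so its balance exists only with the extension.

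Genes passing for l-lactate over both lines numbered 2 in the reported fit, 0 with a pseudocount of 0.5, 190 with 5, 0 without filter, 59 with a mean of at least 20 RPM, 175 with PACs listed in all 4 libraries and 0 without the block. The lines supply the pairing of treated and control libraries. Genes past 1.5-fold numbered 386 in KYSE30 and 394 in TE-1, but 128 and 154 with a pseudocount of 5, 231 and 238 with PACs listed in all 4 libraries, and 119 and 118 at 2-fold. PACs changed by 10 points numbered 1094 and 1167, but 2526 and 2692 at 5 points, 407 and 488 in genes of at least 20 RPM, and 461 and 551 for PACs listed in all 4 libraries, and Fisher's exact test on tags called 1872 in TE-1. Usage calls became 345 for l-lactate with PACs listed in all 4 libraries, and 3176 (pseudocount of 5) and 2573 (PACs listed in all 4) between the lines. Counting shifts of any length gave 546 PACs in KYSE30, 486 in TE-1, and 573 and 591 between control and between l-lactate libraries; quantile midpoints gave 212 in TE-1 and 298 between l-lactate libraries. Dominant shares changed by 5 points in 2284 PACs in KYSE30 and 2100 in TE-1. Apart from the construction of the alternatives, the cause was not tested. Tests on counts by edgeR and DESeq2 were planned and not run, because the tables list no PAC under 8 tags and the tags worked out from RPM were used for intervals and Fisher's test only. TMM scaling within a line changed no call of LDHA, SLC16A1, SLC16A3 or BSG. Over all genes it gave 388 past 1.5-fold in KYSE30 and 384 in TE-1, where upward genes went from 248 to 215. Leaving out 1 library would leave no residual degree of freedom, so the values within each line stand in for it.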
